A study of Homo sapiens with 12 samples.

Results

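Pseudogenes are copies of genes that no longer make the working product. Of the 58381 windows of 400 bp around annotated transcription start sites, 13649 were pseudogene windows. They are the nuclear windows whose nearest RefSeq 5′ end on the same strand, within 200 bp, belongs to a gene with a pseudogene biotype, with windows of protein-coding genes left out. They carry 13576 gene symbols. The median distance from window centre to gene end was 6 bp, and 5435 windows (39.8%) lay exactly on it. By biotype, 12694 are pseudogenes not marked as transcribed, 770 are transcribed pseudogenes, and 185 are immune receptor gene segments or non-coding RNA pseudogenes.

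All samples are HEK293, an established human embryonic kidney line, with no treatment or genotype contrast. Chromatin was precipitated with BG4, an antibody that binds G-quadruplexes, the stacked structures formed by DNA with several runs of guanines. BioRep1, BioRep2 and BioRep3 each hold 3 technical ChIP libraries, and the 3 inputs were not analysed here. Values are counts per 1e6 reads in all windows (CPM), averaged over technical libraries and given as mean ± SD over the biological replicates (n = 3). Whether these came from separate cultures is not stated, so the spread between them may be technical.

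Most human pseudogenes are processed: a messenger RNA was reverse transcribed and inserted elsewhere in the genome, usually without the promoter of its source gene. Others arose by duplication of a genomic segment, which can carry the promoter along. Short structural RNAs, such as U6 and 7SK, also left many processed copies. Active promoters with open chromatin are the sites where BG4 binding is best known.

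The libraries held 372030 to 846114 reads in windows, of which 9.43 to 11% fell in pseudogene windows. One read equalled 1.18 to 2.69 CPM, and the median pseudogene window held 2 to 6 reads per library, so a single window of background density is poorly measured. Of the pseudogene windows, 4.05% overlap another window and share its reads.

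The sequences nearest to the finding are promoters of other genes that lie over pseudogene windows, taken from RefSeq (GRCh38.p14; 250 bases before to 50 after a gene's start). At least 150 bp of overlap linked 88 pseudogene windows with 96 of these promoters. Below, runs of 3 or more G or C are in capitals. The first 4 lie over pseudogene windows with a peak in all 3 lists, PPIA is the promoter of a parent gene with such a peak, and FAM217A lies over a pseudogene window with no peak. ZSCAN30 (chr18:35290180-35290479, minus strand) runs opposite to ZNF271P. SUGT1P4-STRA6LP-CCDC180 (chr9:97238176-97238475, plus strand) is a long non-coding readthrough RNA that starts with the pseudogene. ACTR1B (chr2:97663995-97664294, minus strand) faces RNU4-8P, and LOC105375330 (chr7:65038212-65038511, minus strand) faces CCT6P3. PPIA is at chr7:44796431-44796730 (plus strand), and FAM217A, opposite TEX56P, is at chr6:4079088-4079387 (minus strand).
ZSCAN30: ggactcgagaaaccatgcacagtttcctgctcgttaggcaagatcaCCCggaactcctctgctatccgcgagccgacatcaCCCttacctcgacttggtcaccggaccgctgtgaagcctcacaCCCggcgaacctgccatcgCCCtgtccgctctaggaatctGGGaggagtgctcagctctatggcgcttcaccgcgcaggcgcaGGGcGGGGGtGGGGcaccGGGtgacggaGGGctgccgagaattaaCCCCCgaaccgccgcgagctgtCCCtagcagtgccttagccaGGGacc
SUGT1P4-STRA6LP-CCDC180: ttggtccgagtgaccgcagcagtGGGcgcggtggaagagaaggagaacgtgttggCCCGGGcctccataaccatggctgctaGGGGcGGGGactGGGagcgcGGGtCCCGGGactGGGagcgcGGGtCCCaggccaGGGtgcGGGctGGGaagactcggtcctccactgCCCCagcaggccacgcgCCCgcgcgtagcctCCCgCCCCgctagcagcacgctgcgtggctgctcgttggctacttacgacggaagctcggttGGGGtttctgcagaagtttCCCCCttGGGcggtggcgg
ACTR1B: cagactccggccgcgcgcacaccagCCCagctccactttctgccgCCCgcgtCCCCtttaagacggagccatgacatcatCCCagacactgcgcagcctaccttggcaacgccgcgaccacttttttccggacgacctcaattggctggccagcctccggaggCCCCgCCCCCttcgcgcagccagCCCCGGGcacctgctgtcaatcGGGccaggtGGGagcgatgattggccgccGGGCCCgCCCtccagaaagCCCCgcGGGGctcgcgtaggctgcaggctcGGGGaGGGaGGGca
LOC105375330: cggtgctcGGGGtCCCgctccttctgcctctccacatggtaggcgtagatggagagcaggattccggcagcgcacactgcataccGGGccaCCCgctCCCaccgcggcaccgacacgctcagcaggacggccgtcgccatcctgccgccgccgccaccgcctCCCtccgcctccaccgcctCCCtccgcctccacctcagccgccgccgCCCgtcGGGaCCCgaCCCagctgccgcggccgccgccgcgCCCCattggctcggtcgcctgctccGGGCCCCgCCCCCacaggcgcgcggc
PPIA: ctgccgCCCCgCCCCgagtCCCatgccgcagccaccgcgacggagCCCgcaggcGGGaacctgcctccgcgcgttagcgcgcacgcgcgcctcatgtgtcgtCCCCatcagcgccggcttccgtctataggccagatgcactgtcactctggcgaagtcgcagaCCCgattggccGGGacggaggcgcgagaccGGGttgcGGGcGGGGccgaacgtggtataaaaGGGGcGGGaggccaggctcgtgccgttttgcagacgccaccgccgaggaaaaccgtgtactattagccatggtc
FAM217A: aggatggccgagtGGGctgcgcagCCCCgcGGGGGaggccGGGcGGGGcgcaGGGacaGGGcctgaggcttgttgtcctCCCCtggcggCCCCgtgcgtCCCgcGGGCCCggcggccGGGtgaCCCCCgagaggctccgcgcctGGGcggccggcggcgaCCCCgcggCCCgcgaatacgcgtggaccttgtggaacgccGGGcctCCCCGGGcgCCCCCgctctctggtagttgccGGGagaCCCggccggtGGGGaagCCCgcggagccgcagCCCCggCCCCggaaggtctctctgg

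These promoters were searched on both strands for 4 runs of GGG or longer with 1 to 7 bases between neighbouring runs. The ZSCAN30 and SUGT1P4-STRA6LP-CCDC180 promoters hold the motif on the printed strand, and FAM217A holds it on both strands. ACTR1B, LOC105375330 and PPIA do not hold it, although ACTR1B has 8 runs of G and 10 of C. In RefSeq as a whole, 30.4% of 22199 protein-coding and 15.6% of 12917 long non-coding promoters of this length hold it. Of the 14 promoters over pseudogene windows with a peak in all 3 lists, 7 hold the motif (Wilson interval 26.8 to 73.2%). At windows with a peak in 2 lists 1 of 10 holds it, and with a peak in 1 list 0 of 4. At windows with no peak 15 of 68 hold it (interval 13.8 to 33.3%), and this interval overlaps the first. Median GC content was 66.3% in the first set and 58.8% in the set with no peak. Most promoters in the first set are protein-coding, and most in the set with no peak are long non-coding. Neither motif nor GC content was compared within a promoter type, so no link with peaks can be read from these values. The window of ZNF271P, a zinc finger pseudogene, had 73.3 ± 2.69 CPM. The window of TEX56P had 6.82 ± 1.39 CPM, at the median of all pseudogene windows, although its overlapping promoter is 79.7% GC. The motif search is a description of these letters and identifies no site.

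Pseudogene windows seldom held a BG4 peak. A peak in all 3 deposited lists, called a consensus peak here, was present in 70 of 13649 (0.513%, 95% Wilson interval 0.406 to 0.647), against a background of 8.89% of all nuclear windows. The 70 windows belong to 64 genes and form 63 separate stretches. A peak in any list was present in 145 pseudogene windows (1.06%), against 15.8% of nuclear windows. The lists of BioRep1, BioRep2 and BioRep3 held peaks in 76, 120 and 140 pseudogene windows. Of the 51 windows with peaks in 2 lists, 46 lacked only the BioRep1 peak; without that list the count with peaks in every remaining list is 116.

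Almost all of the consensus peaks were at pseudogenes of the transcribed biotype. This label is an annotation in RefSeq, and whether these genes are transcribed in HEK293 was not examined here. A consensus peak was present at 64 of 770 transcribed pseudogene windows (8.31%, interval 6.56 to 10.5), but at 6 of 12694 not marked as transcribed (0.0473%, interval 0.0217 to 0.103). None of the 185 segment and non-coding RNA windows had a peak in any list. For reference, 498 of 5339 long non-coding RNA windows (9.33%, interval 8.58 to 10.1) and 3653 of 14200 protein-coding windows (25.7%) had one. The intervals of transcribed pseudogenes and long non-coding RNAs overlap.

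**Figure D1:**
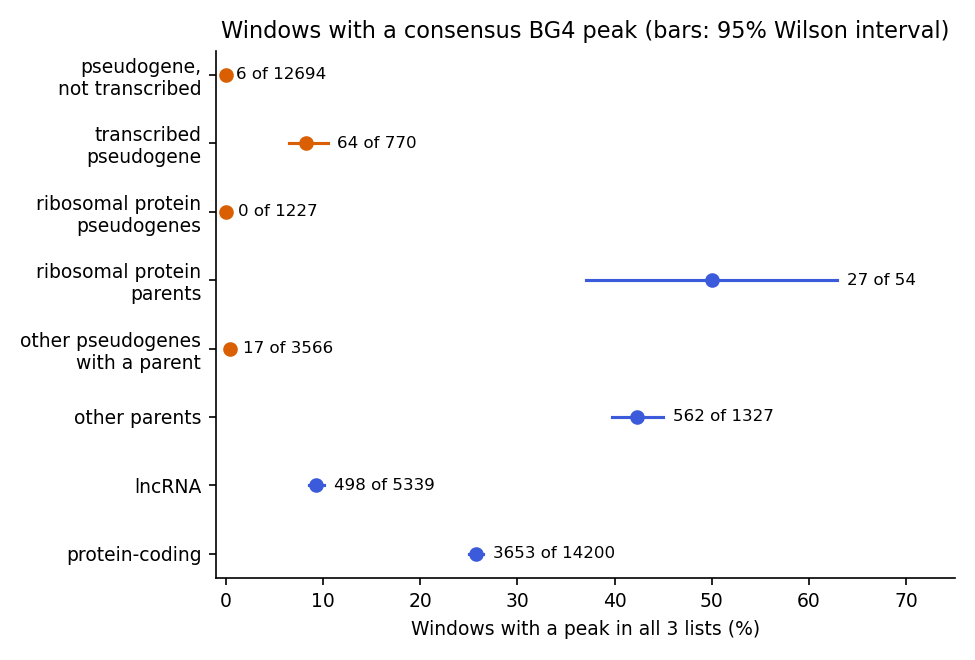
Share of windows with a peak in all 3 lists (x axis, percent) for 8 classes of start site window (y axis), with 95% Wilson intervals as bars and counts beside each point; pseudogene classes are orange. Transcribed pseudogenes (8.31%) lie near long non-coding RNAs (9.33%), and pseudogenes not marked as transcribed (0.0473%) and ribosomal protein pseudogenes (0 of 1227) lie at the bottom of the scale.

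Read density differed most in the upper tail. The median was 6.85 ± 0.478 CPM over all pseudogene windows, with 7.26 in BioRep1, 6.97 in BioRep2 and 6.32 in BioRep3. It was 6.85 ± 0.477 for pseudogenes not marked as transcribed and 7.34 ± 0.414 for transcribed ones. Within each replicate the transcribed median was the higher, with 7.81 against 7.25 CPM in BioRep1, 7.21 against 6.97 in BioRep2 and 7.01 against 6.32 in BioRep3; this difference was not tested. Long non-coding RNA windows had a median of 9.93 ± 0.537, and protein-coding windows without any peak had 10.7 ± 0.444.

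The means differed more: the mean over transcribed pseudogene windows was 14.6 ± 0.179 CPM, against 7.15 ± 0.446 for the others. The log2 ratio of these means was 0.93, 1.04 and 1.13 in the 3 replicates (1.03 ± 0.10). It was above 0 in 3 of 3 (exact sign-flip permutation test, two-sided, p = 0.25, the smallest p that 3 replicates allow). Over windows without a peak in any list the log2 ratio was 0.10 ± 0.04. Peaks are called from the same reads, so leaving out windows with a peak removes the densest ones by construction, and this value does not locate the difference. The 95th percentiles were 59.2 CPM for transcribed pseudogenes and 12.8 CPM for those not marked as transcribed.

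**Figure D2:**
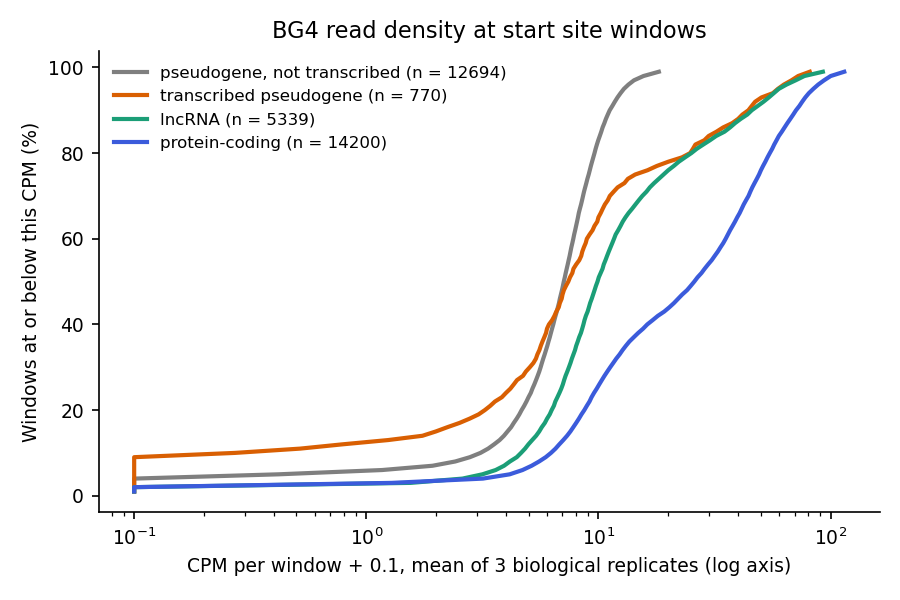
Cumulative share of windows (y axis, percent) at or below a read density (x axis, CPM + 0.1, log axis; mean of 3 biological replicates), drawn from the 1st to the 99th percentile for 4 classes of window. The curve of transcribed pseudogenes lies to the left of the other pseudogenes at low density (25th percentiles 4.07 and 5.09 CPM), to their right at high density, and near the long non-coding RNAs at the 95th percentile (59.2 and 59.7 CPM).

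Windows with no reads in any of the 9 libraries were commoner at transcribed pseudogenes. On the autosomes and the X chromosome, 8.92% of transcribed pseudogene windows were empty in all 9, against 2.88% of those not marked as transcribed and 2.23% of protein-coding windows. Over all pseudogene windows 667 of 13649 were empty, and 429 of 13392 without chromosome Y, so most windows on that chromosome had no reads. Many transcribed pseudogenes are recent duplicates. Whether reads that match several copies were kept, dropped or placed at random is not given in the sources used here, and its part in the empty windows was not tested. For the same reason, a value at one member of a near-identical family is uncertain.

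When a pseudogene window did have a consensus peak, its density was that of a gene promoter with a peak. The median of the 70 windows was 62.3 ± 2.81 CPM, against 64.7 ± 3.33 for protein-coding windows with a consensus peak. They ranged from 29.4 CPM at NBPF25P to 93.7 CPM at VAMP9P. The CPM played no part in the choice of these windows, but peaks are called from the same reads, so high density is not a separate result. There were 22 pseudogene windows without any peak above the lowest of these values.

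Next, pseudogenes were set against their functional parents. Parents were found by symbol (PPIAP23 to PPIA), which gave 4793 pseudogene windows with a window for 1381 parents. A consensus peak was present at 589 parents (42.7%, interval 40.1 to 45.3) but at 17 of their 4793 pseudogene windows (0.355%, interval 0.222 to 0.567). Median density was 43.9 ± 1.81 CPM at parents and 7.14 ± 0.403 at pseudogenes. The log2 ratio of the medians was 2.49, 2.61 and 2.76 in the 3 replicates (2.62 ± 0.13; exact sign-flip permutation test, two-sided, p = 0.25, the smallest possible). The parent's window was above every one of its pseudogene windows for 1267 of 1381 parents (91.7%).

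Ribosomal protein genes, which encode the protein parts of the ribosome, have the most processed copies. None of the 1227 windows of their pseudogenes with a parent window had a peak in any list (0%, Wilson upper bound 0.312%), and their median was 7.61 ± 0.463 CPM. Among all 1842 windows named as ribosomal protein pseudogenes, with or without a parent window, none had a consensus peak. A peak in the BioRep3 list alone was present at 2, RPL23AP7 (25.5 ± 7.17 CPM) and RPL23AP53 (14.2 ± 1.67 CPM). The RPL23AP7 window shares 275 bp with the promoter of RABL2A, a coding gene on the opposite strand. Of the 54 parents, 27 had a consensus peak (50.0%) and 45 a peak in any list, with a median of 47.6 ± 3.02 CPM. The parent was above all its copies in 53 of 54 families. The exception was RPL30, a 60S subunit protein, with 8.56 ± 0.646 CPM against 10.2 ± 2.54 at RPL30P1.

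RPS2, a protein of the 40S subunit, gave the widest contrast among the 10 parents with the most pseudogene windows. Its own window had 98.0 ± 3.53 CPM, between 84.2 and 109 in the 9 libraries, and its 53 pseudogene windows had a median of 7.33 and a maximum of 11.9 ± 0.987 CPM (RPS2P36). The lowest RPS2 library was thus far above the highest copy. RPSA, another 40S protein, had 44.1 ± 4.98 CPM, and the highest of its 70 copies, RPSAP71, had 20.7 ± 6.67. RPL7A had 40.3 ± 3.49 CPM against at most 16.7 ± 2.65 at its 77 copies. RPL12 had 41.3 ± 6.17 CPM against at most 16.7 ± 2.84 at 48 copies. RPS3A (45.3 ± 7.79 CPM, peaks in 2 lists), RPL36A (45.9 ± 6.13, peak in 1 list) and RPL17 (22.8 ± 6.52, no peak) also lay above all of their copies.

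The other 3 of these 10 parents are not ribosomal. PPIA encodes the proline isomerase cyclophilin A and has the most copies, 81; its promoter, printed above, had 48.5 ± 1.47 CPM, and its highest copy, PPIAP23, had 17.0 ± 2.42. KRT18, a keratin of epithelial cells, had no peak and 18.6 ± 1.82 CPM, against at most 14.9 ± 0.604 at its 60 copies. NPM1, the nucleolar protein nucleophosmin, had no peak and 17.8 ± 2.26 CPM, and its copy NPM1P22 had 20.5 ± 2.90, a difference within the replicate spread. None of the copies of these 10 parents had a peak in any list.

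**Figure D3:**
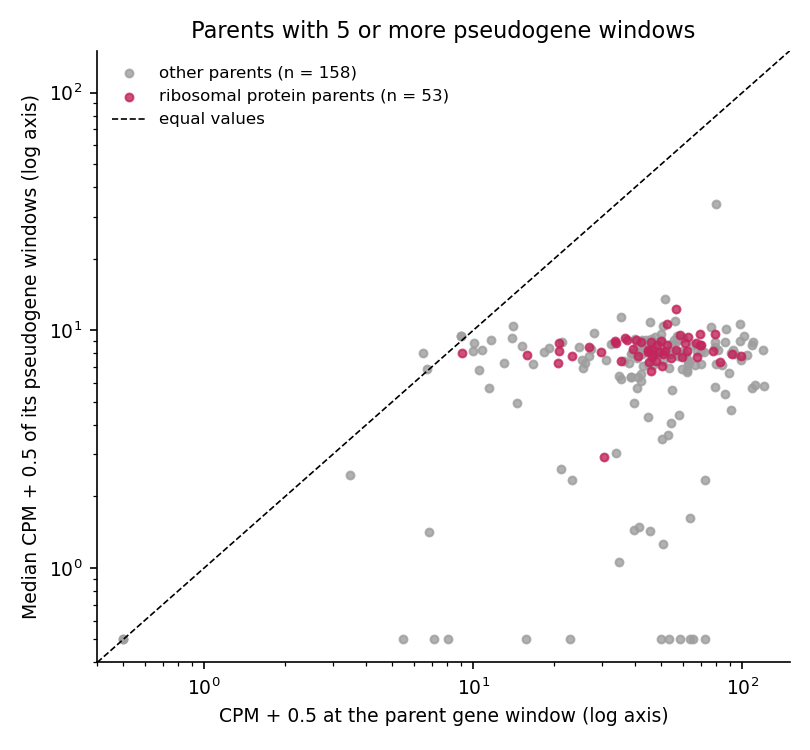
Each point is one of 211 parent genes with 5 or more pseudogene windows: its own window's CPM + 0.5 (x axis, log) against the median CPM + 0.5 of its pseudogene windows (y axis, log), with ribosomal protein genes (n = 53) in red. Points spread widely along the x axis but most lie near 7.47 CPM on the y axis, and the median of the pseudogenes was below the parent for 205 of 211. Points at the lowest level are families whose median copy had no reads, among them USP9Y, whose own window on chromosome Y had none either.

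Copies were also compared by whether the parent itself had a consensus peak, and the intervals of the shares overlap. Of 2247 pseudogene windows whose parent had a consensus peak, 8 had one too (0.356%, interval 0.181 to 0.701). Of 2546 whose parent had none, 9 had one (0.353%, interval 0.186 to 0.670). Their medians were 7.18 ± 0.440 and 7.10 ± 0.379 CPM. Among transcribed pseudogenes the shares were 7 of 85 (8.24%, interval 4.05 to 16.0) and 8 of 131 (6.11%, interval 3.13 to 11.6).

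Families named by symbol were then described by type. The 1779 windows of small nuclear RNA pseudogenes, copies of spliceosomal RNAs, had 1 consensus peak and a median of 6.37 ± 0.528 CPM; 1310 of them are U6 copies, none with a peak. The 294 windows of 7SK copies (7.76 ± 0.461 CPM), the 54 of Y RNA copies (7.32 ± 0.448) and the 103 of heat shock protein copies (7.10 ± 0.695) had no peak in any list. Keratin copies (125 windows, 7.70 ± 0.353) and immunoglobulin and T cell receptor segments (183 windows, 6.64 ± 0.483) had none either. Nuclear copies of mitochondrial genes (397 windows) had no peak and 5.77 ± 0.459 CPM, and olfactory receptor pseudogenes (389 windows) had no consensus peak and 5.38 ± 0.537. These last medians lay below that of all pseudogene windows by more than the replicate SD.

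Beyond the structural RNAs, consensus peaks were found in 4 of these families. Zinc finger pseudogenes had 4 among 55 windows, with ZNF767P the highest at 88.3 ± 5.96 CPM. Tubulin pseudogenes had 2 among 49, both windows of TUBA3FP (71.7 ± 11.4 and 68.5 ± 7.14 CPM), which overlap. Actin pseudogenes had 1 among 26, at ACTG1P25 (55.6 ± 1.56 CPM). Histone pseudogenes had none among 71, but H3C9P (37.7 ± 1.41 CPM) had a peak in the list of BioRep2. The FAM86 family, taken up after its values were seen, had 9 among 11 windows.

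The 6 consensus windows of pseudogenes not marked as transcribed were RNU4-8P, LOC100132570, FAM86GP, FAM86KP, PAWRP1 and PKD1P6. RNU4-8P, a copy of the spliceosomal U4 RNA, had 81.8, 91.0 and 105 CPM in BioRep1, BioRep2 and BioRep3, and 76.7 to 113 over the 9 libraries. Its window (chr2:97664018-97664417) shares 277 bp with the ACTR1B promoter printed above, and the ACTR1B window itself had 95.5 ± 12.9 CPM and a consensus peak. ACTR1B encodes an actin-related subunit of dynactin. LOC100132570 (chr17:46266838-46267237) had 88.3, 76.7 and 96.6 CPM, with the nearest protein-coding start, LRRC37A, 18993 bp away. PAWRP1 (chr10:95183454-95183853), a copy of the apoptosis regulator PAWR, had 59.0, 39.2 and 56.9 CPM; every library of BioRep2 (34.5 to 44.9) lay below every library of BioRep1 (56.4 to 61.6). PAWR itself had a consensus peak and 63.0 ± 2.90 CPM. PKD1P6 had 45.8 ± 2.44 CPM, and its parent PKD1, the polycystin gene, had 16.8 ± 2.11 CPM and no peak.

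The neighbours of the 70 consensus windows were of 3 kinds. For 18, a protein-coding start lay within 1 kb, in every case on the opposite strand. For 11 of the 18 it lay within 200 bp. Windows named for a coding gene on the same strand within that distance were left out, so the strand there is largely set by the rule. For 16, a long non-coding RNA start lay within 1 kb with no coding one, and 36 had neither. The median was 67.1 CPM for the first kind and 60.2 CPM for the last, and their difference was not tested. Of the 70 windows, 36 (51.4%) overlap another window, against 4.05% of all pseudogene windows and 19.6% of transcribed ones. For protein-coding windows the shares were 36.7% with a consensus peak and 21.2% of all.

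Some of the pseudogene windows with a consensus peak face a coding gene head to head, and examples follow. Of all 160 pseudogene windows within 1 kb of a coding start, on either strand, 126 had no peak in any list. TTC41P faces HSP90B1, the chaperone GRP94 of the endoplasmic reticulum, at 199 bp; its window had 64.4, 90.4 and 84.7 CPM, and that of HSP90B1 had 60.8 ± 8.53. PPP5D1P faces CALM3, a calmodulin gene, at 213 bp, with 66.9 ± 9.50 CPM against 94.2 ± 13.7 at CALM3. HTR7P1 faces HEBP1, a haem-binding protein gene, with 2 overlapping windows of 68.1 ± 6.60 and 67.8 ± 7.46 CPM against 69.9 ± 8.28. ZNF271P faces ZSCAN30 at 53 bp, with 73.5, 70.5 and 75.9 CPM and 72.1 ± 2.34 at ZSCAN30. TMEM198B lies 21 bp from a start of DNAJC14, whose outermost window has no peak and 13.4 ± 3.45 CPM, while the TMEM198B window had 75.5 ± 15.7. In pairs whose windows overlap, the same reads are counted for both genes, so the peak belongs to the pair and not to the pseudogene alone.

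Over all pseudogene windows, density and peaks rose toward protein-coding starts. The 44 windows within 200 bp of one had 11 consensus peaks and a median of 24.3 ± 3.18 CPM, and the 50 farther off but within 500 bp had 6 and 11.3 ± 1.57 CPM. The 66 between 500 and 1000 bp had 1 consensus peak and 8.78 ± 0.491 CPM, and the 6214 beyond 50000 bp had 19 and 6.21 ± 0.445 CPM. The log2 ratio of mean CPM, within 1 kb over farther away, was 1.14, 1.26 and 1.36 in the 3 replicates (1.25 ± 0.11; exact sign-flip permutation test, two-sided, p = 0.25, the smallest possible). Over windows that overlap no other window it was 0.60 ± 0.08. That setting keeps windows on a coding start that has no window of its own, such as TMEM198B, so coding promoters are not all removed.

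The range was wider at transcribed pseudogenes. Their median was 31.6 ± 3.34 CPM within 200 bp (29 windows, 10 with a consensus peak) and 5.93 ± 0.320 beyond 50000 bp (273 windows, 18 with one). Pseudogenes not marked as transcribed had 6.86 ± 1.06 CPM within 200 bp (14 windows, 1 with a consensus peak), 9.24 ± 1.64 from there to 500 bp and 6.22 ± 0.448 beyond 50000 bp. The difference between the 2 groups of pseudogenes near genes was not tested. Consensus peaks were also found at transcribed pseudogenes with no coding start within 1 kb, at 47 of 716 (6.56%, interval 4.97 to 8.62). Some of these have a long non-coding RNA start within 1 kb. Among windows with neither a coding nor a long non-coding RNA start within 1 kb, the log2 ratio of mean CPM, transcribed over not, was 0.79 ± 0.09.

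**Figure D4:**
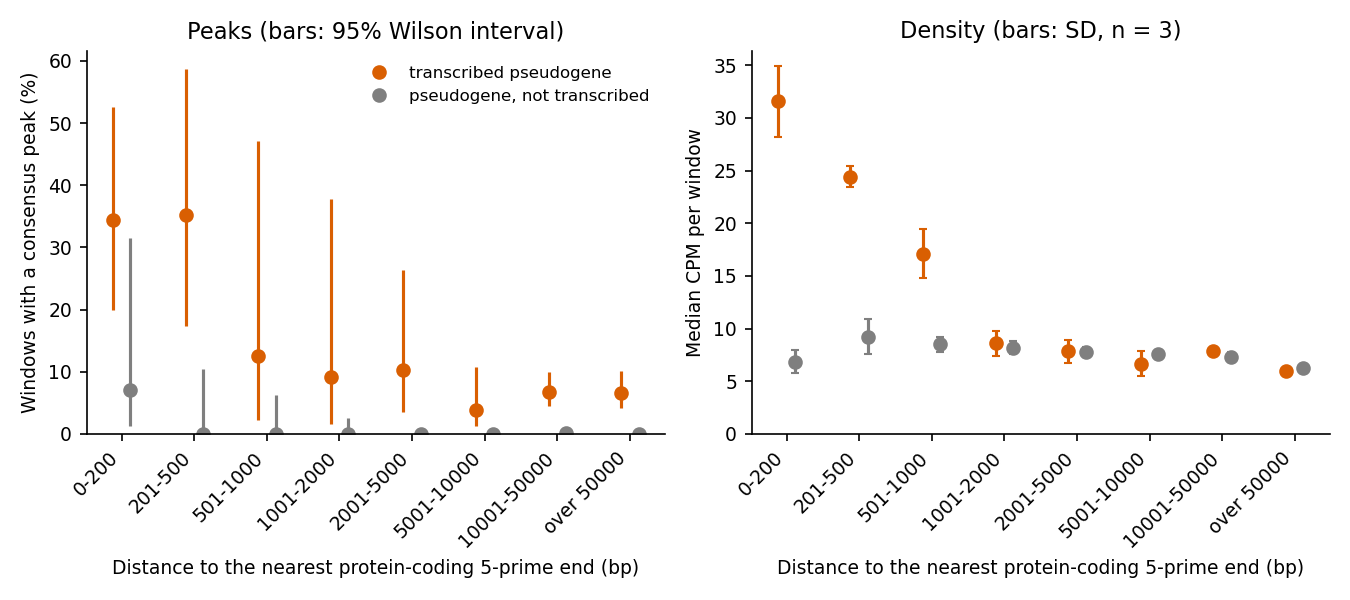
Left: share of pseudogene windows with a consensus peak (y axis, percent; bars are 95% Wilson intervals) by distance to the nearest protein-coding 5′ end (x axis, bp). Right: median CPM (mean ± SD, n = 3) in the same bins; transcribed pseudogenes (orange) fell from 31.6 CPM within 200 bp to 5.93 beyond 50000 bp, and the others (grey) stayed between 6.22 and 9.24 CPM.

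Other consensus windows included the highest of all. VAMP9P, named for a family of vesicle fusion proteins, (chr4:82284772-82285171) had 90.7, 95.5 and 94.7 CPM by replicate, from 76.7 to 105 over the libraries, with a long non-coding RNA start at 275 bp. ZNF767P had the highest lowest library, 79.7 CPM. EP400P1, a copy of the chromatin remodeller EP400, had 84.5 ± 7.90 CPM against 95.9 ± 12.2 at EP400. AMZ2P1 had 86.6 ± 8.81 CPM. FABP5P3, a copy of a fatty acid binding protein gene, had 85.4 ± 13.9 CPM and lies 892 bp from KMT2C, a histone H3 lysine methyltransferase gene (42.2 ± 3.75 CPM, peaks in 2 lists). The other FABP5 copies had at most 12.8 ± 6.26 CPM, and FABP5 itself had 9.97 ± 3.82 and no peak. ORAI1, the pore subunit of a calcium channel, is a working gene that the gene table lists under the transcribed pseudogene biotype; it had 76.9 ± 7.47 CPM.

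The FAM86 pseudogenes, copies related to a gene for a lysine methyltransferase of elongation factor 2, mostly had peaks. Consensus peaks were present at FAM86HP, FAM86FP, FAM86C2P, FAM86GP, FAM86JP, FAM86DP, FAM86EP (2 windows at the same position) and FAM86KP, between 60.3 ± 1.77 and 74.5 ± 2.26 CPM, on chromosomes 3, 4, 11 and 12. Of the 11 windows, 4 overlap another window and share its reads. FAM86DP overlaps the long non-coding RNA LINC02018 (96.7 ± 8.37 CPM) and FAM86JP overlaps LOC102723696 (90.3 ± 2.89 CPM), both with consensus peaks. FAM86HP, FAM86FP and FAM86C2P overlap no other window, but the start of the long non-coding RNA LINC02021 lies 235 bp from FAM86HP. The nearest long non-coding RNA start was 1075 bp away for FAM86FP and 42200 bp for FAM86C2P. FAM86C1P had peaks in 2 lists and 34.2 ± 4.10 CPM. FAM86LP, on chromosome 7, had none and 4.77 ± 0.0457 CPM.

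Copies of SEPTIN7, a cytoskeletal GTPase, and GTF2I, a general transcription factor, divided into some with a peak and more without. SEPTIN7P13 and GTF2IP20 start back to back on chromosome 1 and had 91.3 ± 11.5 and 84.8 ± 9.27 CPM with consensus peaks. Their values were lowest in BioRep1, at 78.0 and 74.1 CPM. The corresponding pairs SEPTIN7P2 with GTF2IP13 on chromosome 7 (44.6 ± 8.86 and 46.3 ± 8.38 CPM) and SEPTIN7P14 with GTF2IP12 on chromosome 4 (33.0 ± 7.54 and 37.7 ± 4.11 CPM) had peaks in 2 lists. In each of these pairs the 2 windows overlap, so shared reads count for both families and their values are not separate. SEPTIN7P9 had peaks in 2 lists as well (32.2 ± 3.65 CPM). The remaining 11 SEPTIN7 copies had no peak and at most 13.3 ± 2.44 CPM. The parents had consensus peaks, with 78.6 ± 8.08 CPM at SEPTIN7 and 47.0 ± 5.87 at GTF2I.

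The same division was seen in other families. Of 5 copies of SMG1, the kinase of nonsense-mediated decay, SMG1P5 (57.5 ± 5.28 CPM) and SMG1P2 (48.3 ± 4.37) had consensus peaks, SMG1P1 had 33.6 ± 3.27 and no peak, SMG1P7 had 3.09 ± 2.24 and SMG1P6 had no reads. CCT6P3, a copy of the chaperonin subunit CCT6A, had 2 overlapping windows of 65.3 ± 3.55 and 64.3 ± 3.38 CPM over the LOC105375330 promoter printed above. CCT6P1 had 41.5 ± 4.26 CPM and peaks in 2 lists, CCT6P2, CCT6P4 and CCT6P5 had at most 8.42 ± 1.06 and none, and CCT6A had 91.3 ± 14.4. PMS2P3, a copy of the mismatch repair gene PMS2, had 60.7 ± 1.56 CPM, while 6 of the other 7 copies had no reads in any library. These families were chosen after their values were seen.

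**Figure D5:**
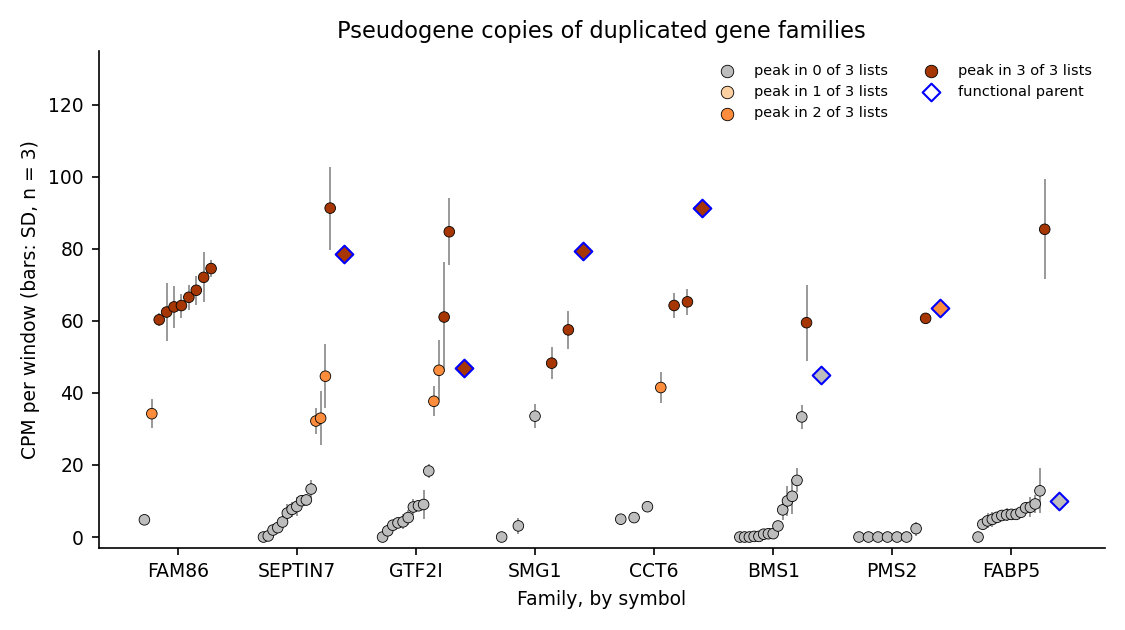
CPM of each pseudogene window (circles, sorted by value within a family; bars are SD, n = 3) in 8 families on the x axis, coloured by the number of peak lists with a peak there; blue diamonds are the functional parent's window, and GTF2I also holds GTF2IRD1P1. Most FAM86 copies lie between 60.3 and 74.5 CPM, while the other families have 1 to 4 windows above 30 CPM and the rest at most 18.3 CPM. The paired SEPTIN7 and GTF2I windows overlap and share reads.

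Some consensus windows were higher than the parent's own window. EEF1DP3, a copy of a translation elongation factor subunit gene, had 56.8 ± 9.57 CPM against 13.5 ± 4.28 at EEF1D. GTF2IRD1P1 had 61.1 ± 15.2 against 31.3 ± 7.27 at GTF2IRD1, and SBDSP1 had 45.03 ± 3.79 against 31.8 ± 6.83 at SBDS, a ribosome maturation gene. RNF216P1 (50.1 ± 0.431) and MRPL45P2 (35.2 ± 9.09) were close to RNF216 (56.1 ± 0.782) and MRPL45 (38.8 ± 0.918). A window lies at the outermost annotated start, so a low parent value may miss the main promoter of that gene; this was not tested.

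Among the windows with peaks in 2 lists, FRG1HP (67.3 ± 5.01 CPM), RNA5SP18 (63.0 ± 9.24) and GUSBP11 (58.2 ± 1.30) were the highest. RNA5SP18, a 5S ribosomal RNA copy, had 73.7, 57.3 and 58.1 CPM; it was the only window with a peak among 508 of 5S copies, and its nearest coding start, that of the small GTPase gene RHOU, lay 3385 bp away. RN7SL521P, a copy of the 7SL RNA of the signal recognition particle, had 40.2 ± 0.463 CPM and lies 338 bp from ZNF425; no other of the 678 windows of 7SL copies had a peak.

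No pseudogene window was called different between the biological replicates. Of the pseudogene windows, 798 had enough reads for edgeR's quasi-likelihood test, and 0 passed an adjusted p of 0.05 (0% of all 17499 windows tested; 49 pseudogene windows had an unadjusted p under 0.05, and the lowest Benjamini-Hochberg adjusted p was 0.15). DESeq2's likelihood ratio test called 0 of 12982, with 105 at an unadjusted p under 0.05. These tests bear on the replicates only, and most pseudogene windows had too few reads for the first.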

How the data were processed

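The deposited count files give raw read counts per 400 bp window (GENCODE release 28 start sites, hg38, per the labels), with no scaling by the authors. The deposited peak lists, 1 for each biological replicate and none for single libraries, give positions only. Tools named in the submitters' processing notes, without versions or settings, are MACS2, BWA, bedtools, Picard and cutadapt, and the peak threshold is not given in the sources used here. Inputs were not analysed here.

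Windows were named by position from RefSeq genes (GRCh38.p14). That table has no strand, so strand came from promoter records, and a pseudogene took the strand of its window; 263 genes reached at both ends were dropped. For 1416 coding genes of unknown strand, both ends counted as possible starts, which can overstate nearness. A consensus peak overlaps the window by 1 bp or more in all 3 lists. CPM divides counts by reads in all windows. Depth was 372030 to 846114 reads per library. Intervals on shares are 95% Wilson and hold counting error only.

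Replicates were compared with edgeR's quasi-likelihood test (TMM, filterByExpr, Benjamini-Hochberg over all windows tested), which was tested on simulated data; its p-values measure only the spread between technical libraries. Ratios had an exact sign-flip permutation test. Alternatives covered peak, overlap, naming, scaling and filter choices, DESeq2, and leaving out libraries or replicates. Python 3.11.15 (numpy 2.4.6, pandas 2.3.3, scipy 1.17.1, matplotlib 3.10.9) and R 4.3.3 (edgeR 4.0.16, DESeq2 1.42.0) were used.

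Named were windows with peaks in 3 lists, the densest 15 with peaks in 2, their nearest neighbours, the 10 parents with the most copies with their highest copy, and symbol families. The ones picked for the text, the duplicated families and the comparison by the parent's peak were chosen after values were seen. Members and lists were chosen with earlier results of these data known.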

Additional observations from a re-analysis of the deposited data

How the results depend on the processing

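The share of pseudogene windows with a consensus peak (0.513%) was 0.887% with a peak in at least 2 lists, 1.06% with a peak in any list, 0.26% over windows that overlap no other window and 0.385% over windows with no coding start within 1 kb. Windows that overlap no other window can still lie on a coding start that has no window. Leaving out each replicate's list in turn gave 0.52 to 0.85%, the highest without BioRep1. Settings chosen after seeing the data gave 0.0473% for pseudogenes not marked as transcribed and 8.31% for transcribed ones. Overlap, naming and family settings gave 0.418 to 0.614%. The share at parents (42.7%) was 60.6% with at least 2 lists, 69.2% with any list, 39.5% with an overlap of 50 bp and 39% with the peak's midpoint inside, and 43.2 to 59% leaving out each list in turn. The cause of the BioRep1 difference was not tested.

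The log2 ratios of parents over pseudogenes, of near over far windows and of transcribed over other pseudogenes stayed above 0 in every setting run, with ranges of 2.49 to 2.68, 0.46 to 1.60 and 0.10 to 1.08. The lowest near-over-far value came from a limit of 5 kb. The lowest transcribed-over-other value came from leaving out windows with a peak, which removes the densest windows by construction. The median of pseudogene windows stayed between 6.64 and 7.21 CPM. Of 116 named windows, 16 moved by more than their SD when CPM was taken on nuclear reads, and none did under TMM. Leaving out 1 of 3 replicates cannot move a mean by a full SD of those replicates. That setting is therefore no check on the named windows.

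With the technical number as a replicate block, 0 of 798 pseudogene windows were called (50 at an unadjusted p under 0.05). Same-numbered libraries of different replicates correlated at -0.0146 to 0.0262, others at -0.0206 to 0.0228, so the numbers do not pair the libraries. Depth limits single windows: 3 reads equal 3.55 to 8.06 CPM, near the pseudogene median.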

Other observations

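Pseudogene windows outside peaks differed by chromosome. Among windows of pseudogenes not marked as transcribed and without any peak, the median ran from 4.81 ± 0.544 CPM on chromosome 18 to 9.22 ± 0.487 on chromosome 1 and 9.21 ± 0.767 on chromosome 22. On chromosome 1 beyond position 200 Mb it was 11.1 ± 0.26 over 244 windows. Counts were not scaled to input, so the number of copies of each chromosome in these cells and binding per copy cannot be told apart here.

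Of the 70 consensus windows, 11 were on chromosome 7 (of 773 pseudogene windows there, 1.42%) and 10 on chromosome 16 (of 402, 2.49%), against 0.513% of all pseudogene windows. The shares on chromosome 22 (4 of 270, 1.48%) and chromosome 12 (8 of 598, 1.34%) were near that of chromosome 7. Chromosomes 5, 14, 15, 21 and X had none. Some of these windows overlap within 1 gene, as at CCT6P3 on chromosome 7 and SLC7A5P2 on chromosome 16. At the share over all pseudogene windows only a few are expected on any chromosome, and the differences between chromosomes were not tested. Chromosome X had 758 pseudogene windows, 2 with a peak in any list.

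The 31 windows of copies of ELOC, an elongin subunit gene, had a median of 0 CPM, and ELOC itself had 72.4 ± 15.4 CPM and a consensus peak. Copies on chromosome Y, where most pseudogene windows had no reads, were not set apart. A median of 0 can therefore not be read as low BG4 binding. Copies of BNIP3, a mitophagy receptor gene, had a median of 3.91 CPM over 40 windows against 57.4 ± 5.97 at BNIP3.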
